A study of Mus musculus with 20 samples.

Results

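Microglia of Trem2-/- mice were compared with microglia of WT mice, neither of which carried the 5XFAD transgenes. The comparison used 8 of the 20 arrays of the series. Of these, 4 were those whose title, source and genotype all gave WT, and 4 were those whose title, source and genotype all gave Trem2-/-. One further array, titled as WT but labelled Trem2-/- in its source and genotype, was left out. The other assigned arrays held microglia of 5XFAD mice (5 arrays) and of Trem2-/-5XFAD mice (6 arrays). 5XFAD mice carry mutant human amyloid precursor protein and presenilin transgenes in neurons and form amyloid plaques. All animals were littermates aged 8.5 months. Brains were taken after perfusion, microglia were isolated by fluorescence-activated cell sorting, and each array received biotin-labelled cRNA prepared from 2 ng of RNA. The sources used here do not give the design of the Trem2 deletion, the strain, the sex of the animals or the sorting gate. The labels do not say how separate the samples were beyond being separate samples, so p-values measure the spread between these arrays.

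TREM2 is a surface receptor of microglia and other myeloid cells that binds lipids and lipoproteins. It has no signalling tail of its own and signals through the adaptor TYROBP (DAP12), which recruits the kinase SYK and, below it, PLCG2 and other enzymes. In brains with plaques TREM2 is known for its part in the switch of microglia from a homeostatic to a disease-associated state, in their survival, and in their handling of lipids. The comparison without the 5XFAD transgenes addresses what the receptor's absence does to microglia before such a stimulus.

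The cells carried the expression profile of microglia on all 8 arrays. Log2 levels of P2ry12, Tmem119, Cx3cr1, Csf1r, Sall1, Siglech and Aif1 ran from 9.63 to 12.29 in them. Mean intensities of these genes over all 20 arrays of the series lay between the 97.4th and 99.7th percentiles of all genes. Levels of 20 or fewer intensity units, below the arrays' medians of 25.7 to 27.7, were found in the WT group for 11 of 17 neuronal, 8 of 16 vascular, 7 of 16 oligodendrocyte and 13 of 19 lymphocyte markers, but for 4 of 14 astrocyte markers. Summed astrocyte signal ran from 4127 to 4543 intensity units in WT and from 3924 to 4755 in Trem2-/- arrays, led by Glul, glutamine synthetase, at a WT mean log2 level of 11.84. A pair of WT arrays stood apart. The mean log2 level of 18 salivary gland markers, such as kallikreins and mucins, was 6.22 in WT 1 and 6.42 in WT 2, but 3.45 in WT 3 and 3.72 in WT 4. In the Trem2-/- arrays it ran from 3.42 to 4.50. The mean log2 level of neutrophil markers was 5.94 in Trem2-/- 1, 4.54 to 4.79 in the other Trem2-/- arrays, and 4.18 to 4.57 in the WT arrays. Signal of Xist, the transcript of the inactive X chromosome, was present in 3 arrays of each group and absent in WT 2 and Trem2-/- 4. In sorted bulk samples, fewer cells of a type and less RNA per cell cannot be told apart.

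Trem2 itself checked the genotype labels. Its log2 level was 11.37, 11.36, 11.39 and 11.14 in the WT arrays. In the Trem2-/- arrays it was 6.84, 7.02, 7.0 and 6.98. The groups lay far apart, and the 4 Trem2-/- arrays lay close together. The difference was -4.36 ± 0.14 on the log2(intensity + 1) scale (SE; adjusted p = 1.59e-14, limma with Benjamini-Hochberg adjustment over 12728 genes), which is a 20.5-fold fall. The remaining signal stayed above the 40th percentile of the arrays (log2 4.16 to 4.29). The sources used here do not say whether the probes target the deleted exons. The partner and the enzymes below it were measured at like levels in both groups: Tyrobp differed by -0.07 (95% interval -0.25 to 0.11), Syk by 0.14 (-0.07 to 0.35) and Plcg2 by 0.09 (-0.15 to 0.32).

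Few genes passed the test. At an adjusted p under 0.05, 78 of 12728 tested genes were called (0.613%), 49 higher (0.385%) and 29 lower (0.228%) in Trem2-/- microglia. At an unadjusted p under 0.05, 837 genes were higher (6.58%) and 740 lower (5.81%). A model of the 8 arrays alone, without the spread of the 5XFAD groups, called 11 genes, 10 of them among the 78. With the array of conflicting labels counted in WT, 26 were called, all among the 78. Of the called genes, 22 differed by more than 1 on the log2 scale, 10 of them higher and 12 lower. The smallest called differences were 0.42 for Rbm3, a cold-inducible RNA-binding protein, and -0.48 for Rcan3, a regulator of calcineurin. In 77 of the 78 genes the 4 Trem2-/- arrays and the 4 WT arrays did not overlap. Among all tested genes 5.79% had groups that did not overlap (3.1% with Trem2-/- higher and 2.69% with Trem2-/- lower). The median difference over all tested genes was -0.01. Single arrays moved the counts. With WT 2 left out 118 genes were called higher and 41 lower, with WT 3 left out 23 and 19, with WT 4 left out 26 and 26, and with a Trem2-/- array left out 15 to 30 and 15 to 21. Of the 78 genes, 24 were called whichever of the 8 arrays was left out, 14 higher (Rasgrf2, Nasp, Arid5a, Emp3, Glo1, Wdfy1, Fam214b, Stat3, Nlrp3, Nnt, Dnaja1, Slc9a3r1, Prdm4 and BC005537) and 10 lower (Trem2, G530011O06Rik, Mid1, Lrmda, Enpp5, Enpp4, Lilra5, Csf1, Tor3a and Lag3). The other 54 lost their call without at least 1 array.

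Apart from Trem2, the largest decreases were of X-linked genes. G530011O06Rik, a long non-coding RNA, had log2 levels of 11.26, 11.37, 10.86 and 11.04 in WT and of 3.91, 3.54, 4.51 and 5.17 in Trem2-/- microglia. It went from among the brightest genes to about the 40th percentile of the arrays, with a difference of -6.85 ± 0.29 (adjusted p = 1.9e-12). Since 2 of the 4 Trem2-/- arrays lay at or under that percentile, it is given as a fall of at least 98.8-fold, with each array's 40th percentile taken as the lowest level. Mid1, a ubiquitin ligase bound to microtubules, had levels of 9.64, 9.92, 9.12 and 9.85 in WT and of 6.18, 6.54, 5.78 and 6.78 in Trem2-/- microglia. Its lowest WT array was more than 2 units above its highest Trem2-/- array, and the difference was -3.31 ± 0.22 (9.94-fold; adjusted p = 6.85e-09). In the RefSeq gene order of the X chromosome, 2 other genes lie between Mid1 and G530011O06Rik. Lrmda, a melanocyte differentiation gene on chromosome 14, came next. It was at 7.51, 7.68, 7.71 and 7.67 in WT microglia and at 4.55, 4.44, 6.02 and 6.0 in Trem2-/- microglia. The groups did not overlap, but the Trem2-/- arrays fell into a lower and a higher pair, and the difference was -2.39 ± 0.35 (adjusted p = 0.00163).

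Other genes fell by less. Csf1, the ligand that sustains microglia through CSF1R, was at 7.90, 8.09, 7.94 and 7.72 in WT and at 6.85, 7.28, 7.18 and 6.57 in Trem2-/- microglia. The highest Trem2-/- array stayed below the lowest WT array, and the fall was 1.92-fold (difference -0.94 ± 0.14, adjusted p = 0.00182). Cst7, which encodes cystatin F, an inhibitor of lysosomal cysteine proteases, was at 7.42, 7.65, 7.25 and 7.28 in WT and at 6.13, 6.99, 6.67 and 6.06 in Trem2-/- microglia. It fell by as much as Csf1 (difference -0.94 ± 0.18, adjusted p = 0.0153), with a wider spread among the Trem2-/- arrays, and lost its call without Trem2-/- 1 or without Trem2-/- 4. The activating leukocyte receptor gene Lilra5 was at 8.26, 8.16, 7.27 and 7.71 in WT and at 6.82, 6.75, 6.37 and 6.33 in Trem2-/- microglia (difference -1.28 ± 0.23, adjusted p = 0.0103). The complement receptor gene C5ar2 (-0.50), the SLAM family receptor gene Slamf9 (-0.60) and the inhibitory receptor gene Lag3 (-0.55) fell by less, each with groups that did not overlap. Lag3, for one, lay between 9.90 and 10.11 in WT and between 9.41 and 9.56 in Trem2-/- microglia. Entpd4, which encodes a nucleotidase of the Golgi, fell by 0.66 ± 0.12 on the log2 scale (adjusted p = 0.0127). Among the rest were Rnase12, a gene of the ribonuclease A family (-1.56), Fam71a (-1.43), Leng9 (-1.20) and the linker histone gene H1f3 (-1.12), which lay at or under the 40th percentile in 3 of the 4 Trem2-/- arrays.

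The largest increase was of Rasgrf2, a guanine nucleotide exchange factor for Ras and Rac. It was at 5.05, 4.70, 5.58 and 5.37 in WT and at 7.74, 8.07, 7.66 and 7.33 in Trem2-/- microglia. Every Trem2-/- array was more than 1 unit above every WT array, and the rise was 5.76-fold (difference 2.53 ± 0.25, adjusted p = 4.75e-06). Of 22 tested genes that encode Ras exchange factors, Ras GTPase-activating proteins or Ras proteins, no other was called; 14 were higher, 3 of them at an unadjusted limma p under 0.05, and the median difference was 0.08. Nr1d1, which encodes the clock repressor REV-ERB alpha, was at 8.23, 8.32, 7.68 and 7.71 in WT and at 9.82, 9.99, 9.49 and 8.68 in Trem2-/- microglia. WT 1 and WT 2 lay above WT 3 and WT 4, the lowest Trem2-/- array, Trem2-/- 4, lay close to the highest WT array, and the difference was 1.51 ± 0.27 (2.85-fold; adjusted p = 0.0105). Nr1d1 lost its call without Trem2-/- 1 and kept it without each of the other 7 arrays.

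A group of smaller increases had narrow ranges in both groups. Emp3, a membrane protein of the peripheral myelin protein family, was at 8.37, 8.94, 8.57 and 8.44 in WT and at 9.61, 9.63, 9.76 and 9.21 in Trem2-/- microglia (difference 0.97 ± 0.14, adjusted p = 0.00112). Glo1, the glyoxalase that detoxifies methylglyoxal, was at 8.27, 8.48, 8.64 and 8.76 in WT and at 9.53, 9.35, 9.59 and 9.43 in Trem2-/- microglia (difference 0.94 ± 0.15, adjusted p = 0.00274). A second Glo1 probe set differed by 1.18 ± 0.22. Wdfy1, an endosomal protein of Toll-like receptor signalling, lay between 6.13 and 6.44 in WT and between 7.03 and 7.32 in Trem2-/- microglia (difference 0.89 ± 0.14, adjusted p = 0.00215). Nnt, the mitochondrial nicotinamide nucleotide transhydrogenase, lay between 5.75 and 6.26 in WT and between 6.68 and 6.92 in Trem2-/- microglia (difference 0.76 ± 0.13, adjusted p = 0.00939). The lysosomal alpha-galactosidase gene Gla rose by 0.81 ± 0.15 (adjusted p = 0.0153). In each of these genes all 4 Trem2-/- arrays lay above all 4 WT arrays.

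**Figure D1:**
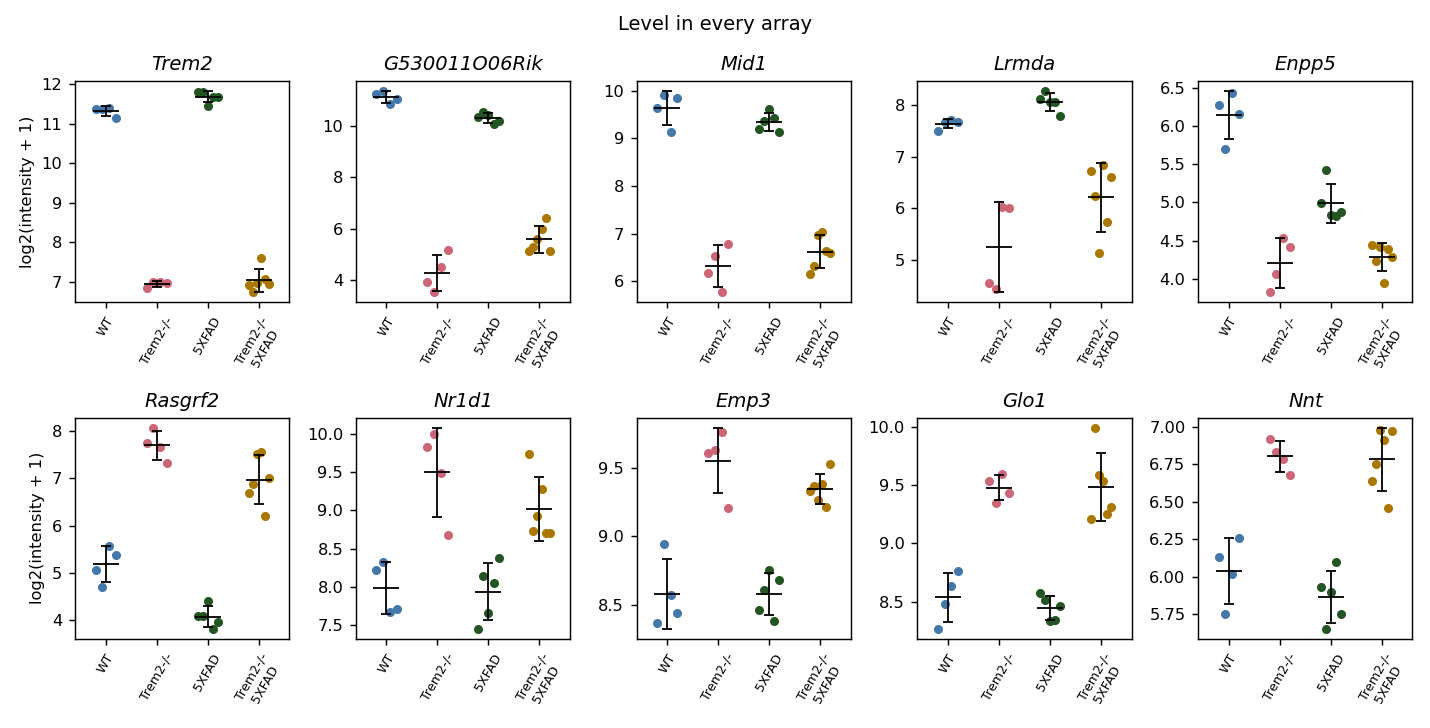
Level of 10 genes as log2(intensity + 1) in every assigned array of the 4 genotypes, with 1 point per array and the group mean ± SD as the black bar. In the Trem2-/- column Trem2 lies between 6.84 and 7.02 and Rasgrf2 between 7.33 and 8.07, apart from the WT points, and the columns with and without the 5XFAD transgenes show the same direction.

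Many of the other increases had a WT group that was split. Bcl6, a transcriptional repressor of inflammatory genes, was at 9.30, 9.05, 7.28 and 7.27 in WT and at 9.95, 9.76, 9.60 and 9.55 in Trem2-/- microglia. The Trem2-/- arrays lay close together, whereas WT 1 and WT 2 lay near them and WT 3 and WT 4 far below. The difference was 1.49 ± 0.33 (adjusted p = 0.0411). Tob1, an antiproliferative regulator, showed the same split, with 8.48 and 8.45 in WT 1 and WT 2, 7.10 and 7.11 in WT 3 and WT 4, and 8.68 to 9.18 in Trem2-/- microglia (difference 1.10 ± 0.25, adjusted p = 0.0404). Hmox1, the haem oxygenase induced by oxidative stress, was at 10.22, 10.28, 9.50 and 8.89 in WT and at 10.84, 11.06, 10.71 and 10.50 in Trem2-/- microglia (difference 1.06 ± 0.23, adjusted p = 0.0349). Gch1, the first enzyme of tetrahydrobiopterin synthesis, was at 5.54, 6.60, 4.30 and 4.99 in WT and within 6.70 to 6.94 in Trem2-/- microglia (difference 1.49 ± 0.29, adjusted p = 0.0184).

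Over the 49 genes called higher, WT 1 and WT 2 both lay above WT 3 and WT 4 in 28 (57.1%), against 16.9% of all tested genes. The reverse order was found in 6 of the 49. Among the 29 genes called lower the counts were 7 and 1. The genes with the split included Nlrp3, the sensor of the NLRP3 inflammasome (difference 0.77 ± 0.14), the kinase gene Map3k8 (0.77 ± 0.17), Arid5a, which stabilises inflammatory mRNAs (1.01 ± 0.16), Tiparp (0.64 ± 0.13), Nasp, a histone chaperone (1.10 ± 0.19), and the translation release factor gene Etf1 (0.68 ± 0.15). Stat3, the transcription factor below interleukin-6 family receptors, rose by 0.79 ± 0.15, with WT arrays at 9.04, 9.23, 8.40 and 8.86. Of the 8 arrays, WT 1 and WT 2 had the highest salivary gland signal, and the part of that difference in these results was not tested. Without both arrays, 199 genes were called higher and 59 lower, and 54 of the 78 genes were among them (40 of those higher and 14 of those lower). Left out singly, WT 1 or WT 2 were the arrays without which Bcl6 and Tob1 kept their call; both genes lost it without any of the other 6. Without WT 1 and WT 2 together Bcl6 differed by 2.44, Hmox1 by 1.58 and Gch1 by 2.20. Without WT 3 and WT 4 in their place, 34 genes were called higher and 42 lower, and 29 of the 78 were among them.

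**Figure D2:**
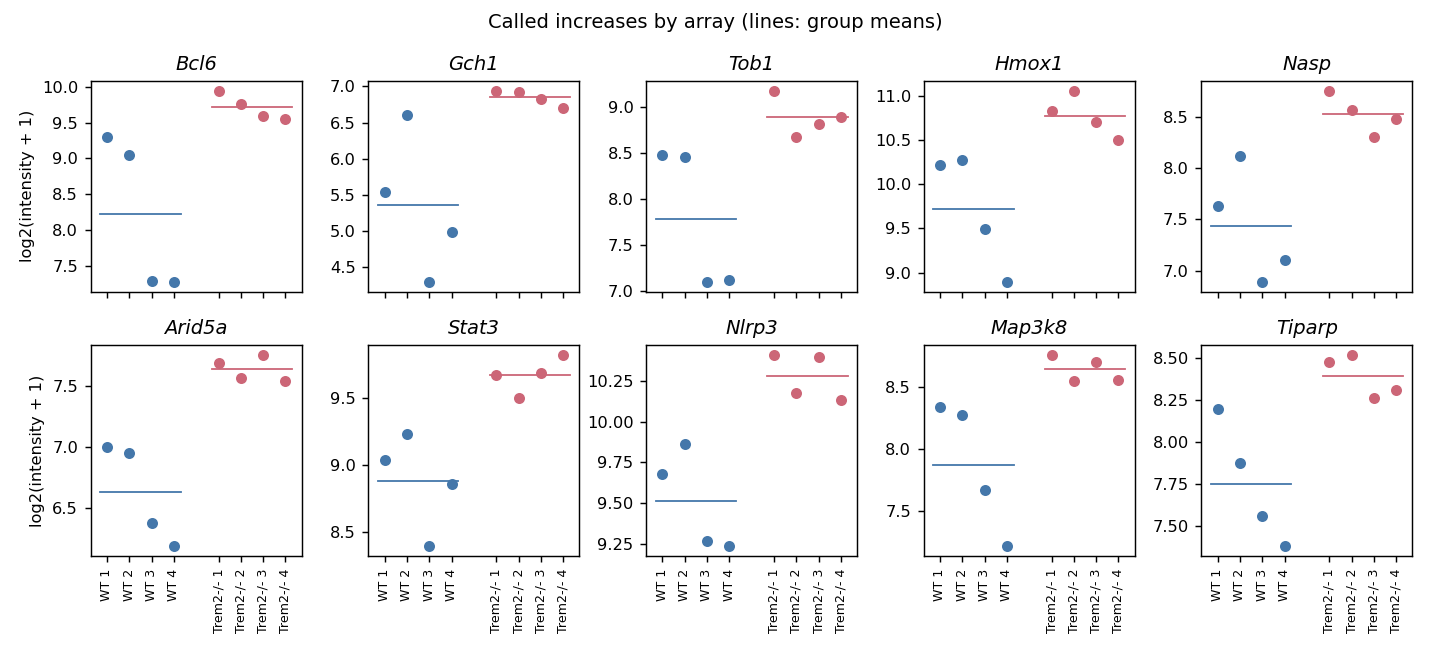
Level of 10 genes called higher, as log2(intensity + 1), in each of the 4 WT and 4 Trem2-/- arrays, with lines at the group means. WT 1 and WT 2 lie above WT 3 and WT 4 in each panel, as for Bcl6 with 9.30 and 9.05 against 7.28 and 7.27, and the Trem2-/- points lie above all of them.

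Promoter sequences are shown for 3 of the increases, to set their named motifs beside the values: Rasgrf2 as the largest rise, Bcl6 for the wide split of its WT group, and Dnaja1 as the called gene of the heat shock list. The sequences are RefSeq's, in the GRCm38.p6 build, and each is a window of 140 bases that ends before an annotated start. The windows are chr13:92131829-92131968 on the minus strand for Rasgrf2, chr16:23988891-23989030 on the minus strand for 1 of the starts of Bcl6, and chr4:40722284-40722423 on the plus strand for 1 of the starts of Dnaja1. Capitals mark CACGTG, the E-box read by clock and MiT/TFE factors, in Rasgrf2 and Bcl6, TTCNNNGAA, the letters bound by STAT factors, in Bcl6, and GAANNTTC, the core of the heat shock element, in Dnaja1.
Rasgrf2: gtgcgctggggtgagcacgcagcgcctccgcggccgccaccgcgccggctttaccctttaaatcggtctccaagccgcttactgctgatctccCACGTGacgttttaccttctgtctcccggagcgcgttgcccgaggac
Bcl6: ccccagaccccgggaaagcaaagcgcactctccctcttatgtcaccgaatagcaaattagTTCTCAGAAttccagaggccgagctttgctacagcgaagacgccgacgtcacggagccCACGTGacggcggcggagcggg
Dnaja1: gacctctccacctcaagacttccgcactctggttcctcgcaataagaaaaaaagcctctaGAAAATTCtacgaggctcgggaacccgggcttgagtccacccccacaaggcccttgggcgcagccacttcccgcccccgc

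The motifs were counted on both strands in RefSeq's promoter stretches, after the called genes were known, in 37 genes called higher and 23 called lower that had a stretch. CACGTG occurred in 8 of the 37 (21.6%), which were Bcl6, Fam214b, Gla, Rasgrf2, Slc20a1, Top1, Wsb1 and Zbtb11, in 3 of the 23 (13.04%), and in 8.09% of all 27025 genes with a stretch. TTCNNNGAA occurred in 4 of the 37, in 3 of the 23 and in 9.55% of all genes. GAANNTTC occurred in 3 of the 37, in 3 of the 23 and in 9.04% of all genes. A gene was counted for a motif if the stretch of any of its starts held it, and the other starts of Dnaja1 held no GAANNTTC. TGACGTCA, the cyclic AMP response element, occurred in 3 of the 37 (Clk4, Wsb1 and Zbtb11), in 0 of the 23 and in 2.03% of all genes. GAGGAA, the core bound by PU.1, occurred in 10 of the 37, in 10 of the 23 and in 31.3% of all genes. AGGTCA, the element bound by REV-ERB and ROR factors, occurred in 3 of the 37, in 5 of the 23 and in 18.1% of all genes. The counts are a description and were given no test.

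The difference between Trem2-/-5XFAD and 5XFAD microglia, which shares no array with the comparison, was read for the same genes. Both differences used 1 estimate of each gene's spread from the same model, so calls in the 2 are not independent. Part of the 5XFAD group also held salivary gland signal. The marker mean was 5.91 in 5XFAD 1 and 5.81 in 5XFAD 2, but 3.23 to 3.28 in the other 5XFAD arrays. In the Trem2-/-5XFAD arrays it ran from 3.34 to 3.64. The part of this signal in the genes shared by both comparisons was not tested. Of the 78 genes, 64 had the same sign there, 42 of those higher and 22 of those lower. In that comparison 7.68% of tested genes were called (3.21% higher and 4.46% lower). Called in the same direction in both were 31 of the 78 (39.7%), 17 higher and 14 lower. With WT 1, WT 2, 5XFAD 1 and 5XFAD 2 left out, 22 of the 78 were called in that direction in the 5XFAD comparison. Rasgrf2 differed by 2.91 ± 0.21 there, Glo1 by 1.04 ± 0.13, Nr1d1 by 1.08 ± 0.23, Nnt by 0.92 ± 0.12 and Emp3 by 0.77 ± 0.12, none with an interaction that passed the test. Mid1 differed by -2.72 ± 0.19 and Lrmda by -1.85 ± 0.30. In 19 tested genes, 13 of them called higher, all 10 arrays without Trem2 lay above all 9 with it; in 8 tested genes, 5 of them called lower, all 10 lay below all 9. The 13 were Rasgrf2, Nr1d1, Tob1, Emp3, Glo1, Gtf2b, Nnt, Ints6, Pcf11, Wsb1, Zbtb11, Eif5 and Rbm3, and the 5 were Trem2, G530011O06Rik, Mid1, Lrmda and Enpp5.

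In 17 of the 78 genes the difference itself differed between the backgrounds (adjusted p under 0.05 for the interaction, limma). Over all tested genes the share was 2.6%. The interaction contains the Trem2-/- minus WT difference by which the 78 were picked, so the 2 shares do not compare like with like. Xist signal was present in 3 of 4 WT and 3 of 4 Trem2-/- arrays, but absent in 4 of 5 5XFAD and all 6 Trem2-/-5XFAD arrays. Background and Xist signal thus went largely together, and their parts in the interaction cannot be told apart. Crip1, a small LIM domain protein, was 0.77 ± 0.17 higher without Trem2 in mice without the transgenes and -1.64 ± 0.15 in 5XFAD mice. Gch1 likewise changed sign, with 1.49 ± 0.29 and -0.81 ± 0.25. Rcan3 changed sign the other way, with -0.48 ± 0.10 and 0.44 ± 0.09. These 3 genes were called in opposite directions in the 2 comparisons. Nlrp3 differed by 0.77 ± 0.14 without the transgenes and by -0.08 ± 0.12 with them (interaction 0.84 ± 0.18, adjusted p = 0.0105). Cst7 fell by 0.94 without the transgenes, from a WT mean of 7.40, and by 1.90 with them, from a 5XFAD mean of 12.21 (interaction 0.97 ± 0.23, adjusted p = 0.0288). For Csf1, with differences of -0.94 and -1.59, the interaction did not pass the test (adjusted p = 0.0614). Lilra5 and Enpp4, both lower without the transgenes, differed by 0.26 ± 0.20 and 0.15 ± 0.13 with them. Their means in 5XFAD microglia with Trem2 were 6.59 and 5.44, and the cause of the difference between backgrounds was not tested.

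**Figure D3:**
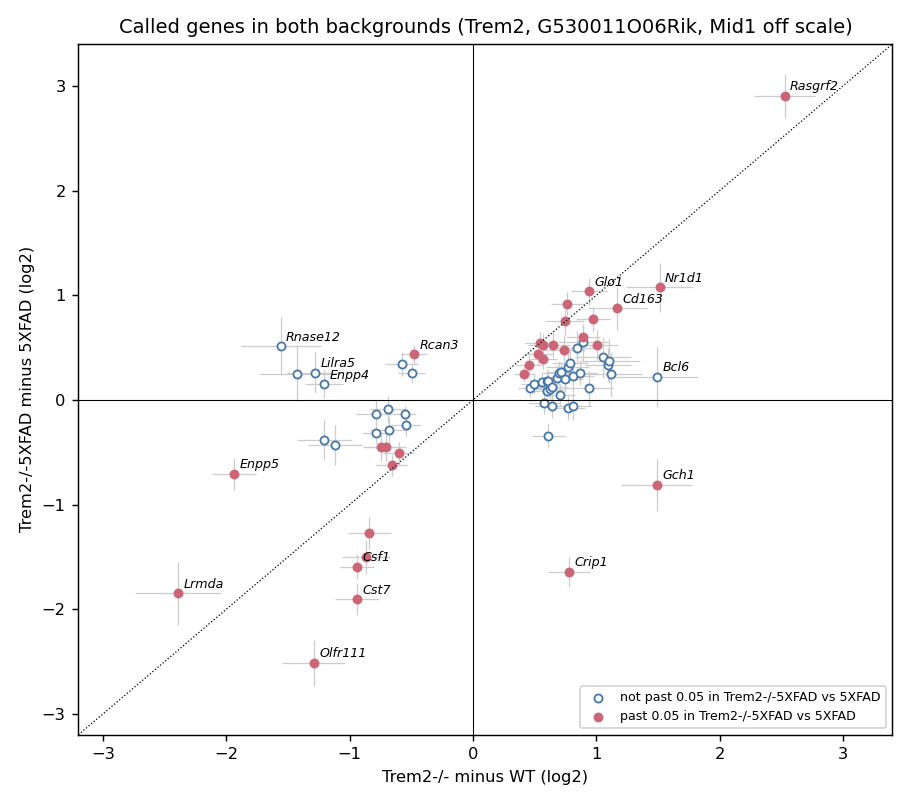
Log2 difference of the called genes between Trem2-/- and WT microglia (horizontal) and between Trem2-/-5XFAD and 5XFAD microglia (vertical), with standard errors as grey bars and the line of equal difference dotted; 3 genes are beyond the axes. Most points share their sign in both directions, Rasgrf2 lies at 2.53 and 2.91, and Crip1, Gch1 and Rcan3 lie in the quadrants of opposite sign.

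No list of pathway genes had more than 2 called members. Over all tested genes, 48.4% were higher and 51.6% lower in sign, and 6.58% were higher and 5.81% lower at an unadjusted p under 0.05, and the counts of each list stand beside these shares. Of 43 tested genes of the disease-associated state, 2 were called, Csf1 and Cst7, both lower. In all, 34 of the 43 were lower, 10 of them at an unadjusted limma p under 0.05 against 3 higher, and the median difference was -0.08. In the 5XFAD comparison 28 of the same genes were called lower and the median was -1.18. Lpl, the lipoprotein lipase, was at 5.09, 4.73, 5.78 and 4.85 in WT and at 4.61, 4.42, 4.49 and 4.10 in Trem2-/- microglia, but did not pass the test (difference -0.71 ± 0.19, adjusted p = 0.114). The lymphocyte surface antigen gene Cd52 differed by -0.60 ± 0.16 (adjusted p = 0.108), the integrin gene Itgax by -0.41 ± 0.18 and the lectin receptor gene Clec7a by -0.40 ± 0.18. Apoe, the main lipoprotein of the brain, differed by 0.02 (95% interval -0.28 to 0.31). Of 33 tested homeostatic genes, 0 were called by limma, 4 were lower and 0 higher at an unadjusted p under 0.05, and the median was -0.06. The purinergic receptor gene P2ry12 differed by -0.13 (-0.37 to 0.11), Tmem119 by -0.11 (-0.31 to 0.09) and the microglial transcription factor gene Sall1 by -0.24 (-0.54 to 0.06). Of 38 tested genes of TREM2 signalling, Trem2 was the 1 called.

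Among other pathways, 1 of 43 lysosomal genes was called (Gla, higher), although 32 of the 43 were lower and 6 of those had an unadjusted p under 0.05. Of 32 genes of lipid handling 0 were called by limma, with 6 higher and 5 lower at an unadjusted p under 0.05. The lipid droplet coat gene Plin2 came closest, at 6.75, 6.84, 7.41 and 6.98 in WT and at 7.71, 7.92, 7.50 and 7.37 in Trem2-/- microglia (difference 0.63 ± 0.15, adjusted p = 0.063), and its groups overlapped. In the list of complement genes C5ar2 was the 1 of 14 called. The type I interferon (33 tested), antigen presentation (16), cholesterol synthesis (21) and oxidative phosphorylation (38) lists had 0 called genes by limma and 2, 2, 2 and 3 genes at an unadjusted p under 0.05. Their medians ran from -0.07 to 0.03.

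Members of the circadian clock list were mostly higher. Nr1d1 was the 1 of 22 called, 16 were higher, and 8 of those against 1 lower had an unadjusted limma p under 0.05, with a median difference of 0.24 (over all tested genes 48.4% higher, 6.58% higher at an unadjusted p under 0.05 and a median of -0.01). In 9 of the 22, WT 1 and WT 2 both lay above WT 3 and WT 4 (40.9%, against 16.9% of all tested genes). Without WT 1 and WT 2, 18 were higher and 3 were called, all higher, where 199 of all 12728 tested genes were called higher. Without WT 3 and WT 4 in their place, 16 were higher, 3 of them at an unadjusted limma p under 0.05. In that setting 0 were called and the median was 0.10. In the model of the 8 arrays alone 0 were called by limma and 5 were higher at an unadjusted p under 0.05. Nr1d2, which encodes REV-ERB beta, was at 8.29, 8.23, 8.44 and 7.85 in WT and at 8.84, 8.93, 8.82 and 8.46 in Trem2-/- microglia. The groups did not overlap, but the gene did not pass the test (difference 0.56 ± 0.16, adjusted p = 0.137). The core genes Cry1 (0.49 ± 0.22) and Per3 (0.40 ± 0.18) and the output gene Dbp (0.25 ± 0.12) did not pass it either, and Bhlhe41 differed the other way (-0.36 ± 0.14). The sources used here do not give the time of day of the dissections.

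Most members of the heat shock list were higher too. Dnaja1, an HSP70 co-chaperone, was the 1 of 19 called, at 10.13, 10.28, 10.19 and 9.92 in WT and at 10.93, 10.87, 10.84 and 10.73 in Trem2-/- microglia (difference 0.71 ± 0.11, adjusted p = 0.00285). A second Dnaja1 probe set differed by 0.89 ± 0.20. Of the 19 genes 15 were higher, 7 of them at an unadjusted limma p under 0.05 against 1 lower (Hsf2, -0.59 ± 0.20), and the median was 0.20, beside the same shares over all tested genes. The chaperone gene Hsph1 differed by 1.20 ± 0.33 (adjusted p = 0.118), with Trem2-/- 4 at 6.52 and the other Trem2-/- arrays at 7.95 to 8.03. Hspa1a, whose neighbour copy Hspa1b is nearly identical so that a probe set may read both, differed by 0.90 ± 0.25, with WT arrays at 8.34, 8.94, 7.75 and 7.47, and Hsp90aa1 by 0.39 ± 0.13. The split of the WT arrays was found in 4 of the 19 members (21.1%), Hspa1a, Hspa9, Dnajb1 and Bag3. Without WT 1 and WT 2, 14 of the 19 were higher and 4 were called, all higher, where 199 of all 12728 tested genes were called higher. Without WT 3 and WT 4 in their place, 18 were higher, 3 of them at an unadjusted limma p under 0.05. In that setting 1 was called and the median was 0.18. The part of WT 1 and WT 2 in the list's values was not tested. In 9 of the 15 tested members with a RefSeq promoter stretch, GAANNTTC was found at any start, against 9.04% of all genes with a stretch. Of 32 immediate early genes 0 were called by limma, and the median was 0.02. At an unadjusted limma p under 0.05, 4 were higher and 1 lower. In 20 of the 32, WT 1 and WT 2 both lay above WT 3 and WT 4 (62.5%, against 16.9% of all tested genes). Without WT 1 and WT 2, 5 of the 32 were called, all higher, with a median of 0.16. In that setting 199 of all 12728 tested genes were called higher. Without WT 3 and WT 4 in their place, 0 were called and the median was -0.03.

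Markers of other cell types were measured in the same arrays. Of 16 tested markers of border macrophages, the macrophages of the meninges and vessels, 14 were higher, 10 of them at an unadjusted limma p under 0.05 (6.58% over all tested genes), and the median was 0.68. In 15 of the 16, WT 1 and WT 2 both lay above WT 3 and WT 4. Without WT 1 and WT 2, 4 were called, all higher, with a median of 0.93, where 199 of all 12728 tested genes were called higher. Without WT 3 and WT 4 in their place, 0 were called by limma, 2 were higher at an unadjusted p under 0.05, and the median was 0.28. With all 8 arrays the scavenger receptor gene Cd163 was the 1 called. It was at 4.83, 5.48, 4.56 and 4.80 in WT and at 6.75, 6.27, 5.96 and 5.35 in Trem2-/- microglia (difference 1.17 ± 0.24, adjusted p = 0.0262). It was the called gene whose groups overlapped, and it kept its call without WT 2 or Trem2-/- 4 and lost it without any other of the 8 arrays. Mrc1 differed by 0.70 ± 0.32, Lyve1 by 1.04 ± 0.37 and Ms4a7 by 0.74 ± 0.21, none of which passed the test. Summed over 17 markers, border macrophage signal ran from 1712 to 2807 intensity units in WT and from 1948 to 3562 in Trem2-/- arrays, and at 20 units or fewer were 3 markers in WT and 0 in Trem2-/- arrays. In 5XFAD mice 10 of the 16 were called higher without Trem2 (3.21% of all tested genes) and 1, Colec12, lower (4.46%). Neutrophil markers had a median difference of 0.64 over 10 genes, with 0 called by limma and 2 higher at an unadjusted p under 0.05. Their summed signal ran from 970.0 to 1177 intensity units in WT and from 1164 to 3839 in Trem2-/- arrays, the highest in Trem2-/- 1. S100a8 was at 4.97, 3.62, 5.79 and 4.98 in WT and at 9.96, 7.54, 7.27 and 6.32 in Trem2-/- microglia (difference 2.93 ± 0.89, adjusted p = 0.155). Astrocyte markers were lower in 8 of 11 genes, 5 of them at an unadjusted limma p under 0.05 against 0 higher, with 0 called and a median of -0.20; Clu, which encodes clusterin, differed by -0.53 ± 0.17 and the glutamate transporter gene Slc1a2 by -0.62 ± 0.23. All 7 tested neuronal markers were lower, with a median of -0.30 and 0 at an unadjusted limma p under 0.05. All 6 tested monocyte markers were higher, with a median of 0.49 and 0 called by limma. The salivary gland list had a median of -1.89 over 13 genes, with 0 called and 5 lower at an unadjusted limma p under 0.05. Its signal was highest in WT 1 and WT 2. Outside them, Mucl2 of this list was at 6.72 in WT 4, 7.67 in Trem2-/- 2 and 9.65 in Trem2-/- 3. With the neutrophil marker mean as a covariate 12 genes were called higher and 15 lower, 23 of them among the 78. With the mean of neuron, glia and vessel markers as a covariate 7 were called higher and 11 lower, all 18 among the 78. The part of border macrophages and monocytes in the called genes was not tested.

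**Figure D4:**
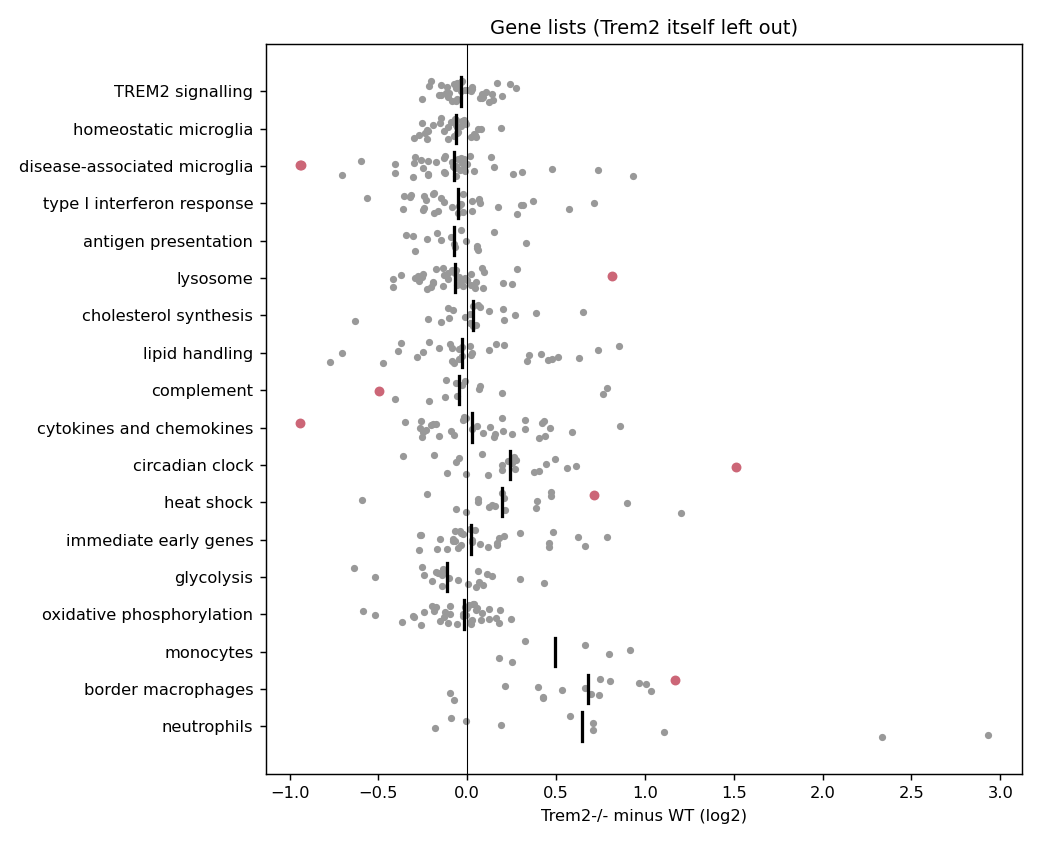
Log2 difference between Trem2-/- and WT microglia for each tested member of 18 gene lists, with 1 point per gene, red where the adjusted p was under 0.05, and the list's median as a black bar. The medians of the homeostatic (-0.06) and disease-associated (-0.08) lists lie near 0, and those of the clock (0.24), heat shock (0.20) and border macrophage (0.68) lists lie above it.

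Called genes were looked for around Trem2 on chromosome 17, by rank among the tested genes in RefSeq order. Trem2 aside, 7 of 651 tested genes of the chromosome were called (1.08%), against 0.58% on the other chromosomes. Of the 5 nearest tested genes on either side 0 were called by limma, and Treml4, Treml2 and Apobec2 had an unadjusted p under 0.05. Treml4, a receptor of the same family beside Trem2, was at 3.35, 3.34, 3.45 and 3.17 in WT and at 3.77, 5.70, 4.37 and 4.49 in Trem2-/- microglia. Its groups did not overlap, but all 4 WT arrays and 1 Trem2-/- array were at or under their own 40th percentile, and the test was not passed (difference 1.26 ± 0.34, adjusted p = 0.116). Treml2 differed by -0.64 ± 0.20 (adjusted p = 0.166) and Treml1 by -0.01 ± 0.12. Of the 100 genes at ranks 1 to 50 on both sides 1 was called, Mydgf, a secreted growth factor (-0.74 ± 0.15). Of the 100 at ranks 51 to 100, 4 were called, all lower and all on the side of lower coordinates. They were Enpp5, Enpp4, Olfr111 and H2-M3.

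Enpp5, of the ectonucleotide pyrophosphatase family, was at 6.28, 5.70, 6.44 and 6.17 in WT and at 3.83, 4.06, 4.54 and 4.41 in Trem2-/- microglia. The groups were more than 1 unit apart, and the difference was -1.94 ± 0.18 (adjusted p = 1.92e-06). Since 2 of the Trem2-/- arrays lay at or under the 40th percentile, it is given as a fall of at least 3.53-fold, taken as for G530011O06Rik. Enpp4, its neighbour among tested genes and a member of the same family, was at 5.82, 6.31, 6.35 and 5.99 in WT and at 4.90, 4.91, 4.72 and 5.09 in Trem2-/- microglia (difference -1.21 ± 0.16, adjusted p = 0.000402). Olfr111, an olfactory receptor gene with close paralogues that a probe set may share, differed by -1.29 ± 0.26 (adjusted p = 0.0205); all 4 of its Trem2-/- arrays lay at or under the 40th percentile, which makes the fall at least 1.89-fold. H2-M3, a non-classical MHC class I gene of a family that shares sequence, differed by -0.84 ± 0.18 (adjusted p = 0.0287). Further out lay Brd2, a bromodomain protein (0.54 ± 0.12), and Glo1. H2-T24, another non-classical class I gene, did not pass the test (0.84 ± 0.21, adjusted p = 0.0798), but was among the genes with all arrays without Trem2 above all with it. The sources used here do not name the strain around the deleted allele.

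**Figure D5:**
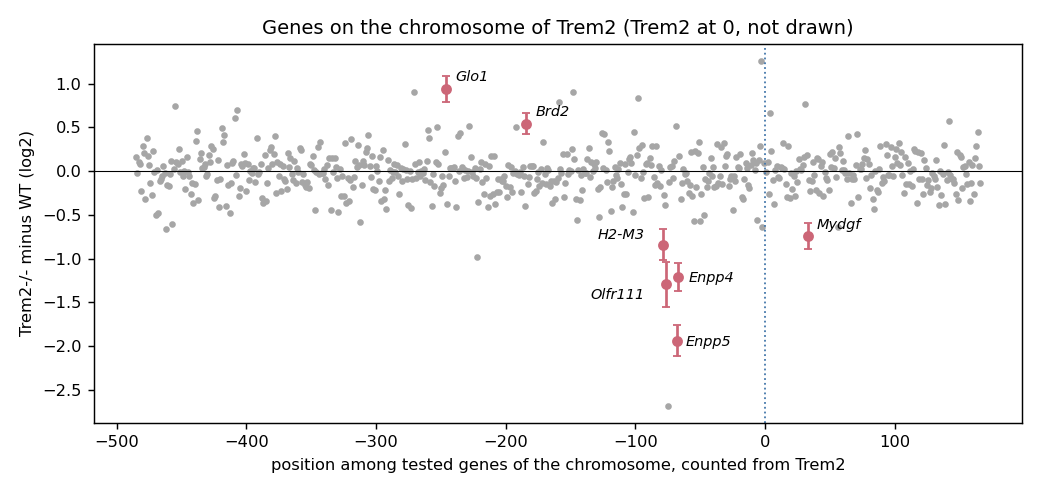
Log2 difference between Trem2-/- and WT microglia for each tested gene of chromosome 17, by its rank from Trem2 (at 0, not drawn), with lower coordinates to the left; called genes are red with standard errors. Enpp5 at -1.94, Olfr111 at -1.29 and Enpp4 at -1.21 are the lowest of the called genes. Crisp3, which was not called and was high in WT 1 and WT 2 only, lies lower still. The genes nearest Trem2 scatter around 0.

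Of the chromosomes with a called gene, chromosome 18 had the highest share, 7 of 297 tested genes (2.36%). They were Impact, Etf1, Map3k8, Fam13b and Crem, which rose by 0.60 to 0.77, and Arhgap26 and Lman1, which fell by 0.87 and 0.68 on the log2 scale. Other called increases, named here after their values were seen and not as a group, were Clk4, a kinase of splicing factors (0.50 ± 0.11), Hnrnpdl (0.47 ± 0.10), the cleavage factor gene Pcf11 (0.57 ± 0.11), the integrator subunit gene Ints6 (0.74 ± 0.16), the general transcription factor genes Gtf2b (0.84 ± 0.18) and Brf1 (0.62 ± 0.12), the topoisomerase gene Top1 (0.64 ± 0.13) and the translation initiation factor gene Eif5 (0.45 ± 0.10). In each of these 8 genes the 4 Trem2-/- arrays lay above the 4 WT arrays. Clk4 lay between 8.98 and 9.18 in WT and between 9.46 and 9.64 in Trem2-/- microglia. The split of the WT group was found in 4 of the 8: Gtf2b (9.36, 9.45, 8.48 and 8.41), Top1 (8.75, 8.74, 8.31 and 8.38), Ints6 (6.65, 6.83, 6.39 and 6.15) and Pcf11 (8.55, 8.86, 8.42 and 8.50).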

How the data were processed

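The authors deposited linear intensity values of 24679 probe sets on 20 one-colour arrays; the sources used here do not give the summary method or normalization, but medians (25.7 to 27.7) and 75th percentiles (102 to 112) of the 8 arrays lay close together. Array correlations were 0.978 to 0.988. Probe sets with 1 gene in the platform annotation (21354; 1275 had several, 2050 none) gave 19751 genes; for 893 genes with several, the brightest stood for the gene. Names and order came from RefSeq's GRCm38.p6 table.

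Values were taken as log2(intensity + 1), which understates folds at low levels. Genes above the array's 40th percentile in at least 4 of the 19 assigned arrays were tested (12728). limma 3.58.1 in R 4.3.3 fitted 1 model over the 19 arrays (15 residual and 5.28 prior degrees of freedom), with Benjamini-Hochberg adjustment over all tested genes and a threshold of 0.05; all p-values of single genes come from it. The median SE was 0.154 and the median 95% half-width 0.32. Precision is limited by how many arrays there were. Of genes simulated to change by 0.5, 1 and 2 (log2) with these group sizes, 25.4%, 82.1% and 100% were called, and 6 unchanged genes were called too. The simulated noise was normal and independent between arrays and genes. It held no shared shift of arrays such as that of WT 1 and WT 2, so the rates do not cover it. Same-numbered WT and Trem2-/- arrays did not deviate together (correlations -0.08 to 0.02), and the other groups were not checked. Genes named were the 15 largest increases and decreases, called genes of chromosome 17, of a list or of both backgrounds, the 5 neighbours of Trem2 on either side, 3 members of each list and fixed microglial genes; others were chosen after their values were seen. The comparison, lists and rule were chosen with earlier results of these data known. Alternatives covered scaling, pseudocount, filter, arrays in the fit, array weights, Xist signal, marker covariates, replicate block, variance estimate and each array left out.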

Additional observations from a re-analysis of the deposited data

Results flagged for a closer look

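In groups of 4 arrays, 9 of 256 groups checked over the 125 genes with values here and 3 marker means (3.52%) held an array far from the other 3, where chance gives about 1 in 20. Trem2-/- 4 was the outlying array for 4 genes: it was highest for Entpd4 (5.93 against 5.61 to 5.63), Slc20a1 (7.46 against 7.05 to 7.09) and Impact (9.48 against 9.06 to 9.11), and lowest for Hsph1 (6.52 against 7.95 to 8.03). Trem2-/- 1 was highest for the neutrophil gene S100a9 (10.58 against 6.93 to 7.55). WT 3 was lowest for Eif5 (9.71 against 9.80 to 9.81) and Sbno2 (7.24 against 7.54 to 7.61). WT 4 was lowest for Trem2 (11.14 against 11.36 to 11.39) and C4b (4.25 against 5.04 to 5.15).

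For 28 of the genes the difference between mice without and with Trem2 was not the same with and without the 5XFAD transgenes, by the interaction term of the limma model. The 2 backgrounds also differed in Xist signal, as given above. The value given is the difference in Trem2-/- minus WT less that in Trem2-/-5XFAD minus 5XFAD. Among called genes it was -2.12 for G530011O06Rik, -2.07 for Rnase12, -1.68 for Fam71a, -1.54 for Lilra5, -1.36 for Enpp4 and -1.23 for Enpp5, each with a more negative difference without the transgenes. Enpp5 lay at or under the 40th percentile in 2 of 4 Trem2-/- and 2 of 6 Trem2-/-5XFAD arrays, with means of 4.21 and 4.28, so that its 2 differences start from WT and 5XFAD means of 6.15 and 4.99. It was -0.92 for Galnt10, -0.91 for Rcan3 and -0.75 for C5ar2. It was 2.42 for Crip1, 2.30 for Gch1, 0.96 for Crem, 0.87 for Gla, 0.84 for Nlrp3, 0.70 for Tiparp and 0.66 for Slc9a3r1, which were all called higher without the transgenes. It was 0.97 for Cst7, which fell in both backgrounds.

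The other 11 genes were not called in Trem2-/- microglia. For genes of the disease-associated state the interaction was 3.09 for Fabp5, 2.84 for Cybb, 2.51 for Itgax, 2.20 for Axl, 2.20 for Lpl and 1.30 for Clec7a. Each of these 6 was called lower in Trem2-/-5XFAD than in 5XFAD microglia, with log2 differences of -2.92 to -1.70. It was 2.07 for the chemokine gene Cxcl2, 1.90 for Nfil3 and 0.85 for Plin2, whose signs were opposite in the 2 backgrounds. It was -0.58 for P2ry12 and -0.69 for Tmem119, which were called higher in Trem2-/-5XFAD than in 5XFAD microglia.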

How the results depend on the processing

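Of 29 alternatives, 2 were chosen after seeing the data. Trem2, G530011O06Rik, Mid1 and Rasgrf2 passed in all 29, and Trem2 ranged from -4.41 to -3.53. The value of -3.53 came with the array of conflicting labels counted in Trem2-/-, and its own Trem2 level was 11.08, near the WT arrays. With each of the 8 arrays left out in turn, Trem2 ranged from -4.41 to -4.32. The 78 genes kept their sign in every alternative in which they were measured, except Cd163 in the arrays without Xist signal (-0.13). There Cxcl2, not called otherwise, was at -1.27. In that setting each group of the comparison is 1 array, WT 2 and Trem2-/- 4, taken to vary like the 4 5XFAD and 6 Trem2-/-5XFAD arrays, so its values rest on a single pair. The main counts were 49 higher, 29 lower, 7 on chromosome 17, 31 also called in 5XFAD mice and 17 with an interaction. With each of the 8 arrays left out in turn, 15 to 118 were higher, 15 to 41 lower and 3 to 14 on chromosome 17.

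Fewer were called in a model of the 8 arrays alone (5 higher, 6 lower, 3 on chromosome 17), with the array of conflicting labels counted in WT (10, 16 and 5) and with it counted in Trem2-/- (42, 20 and 3). The same held for array weights (35, 13 and 3), the arrays with Xist signal (6, 4 and 1), the neutrophil covariate (12, 15 and 3) and the mean of neuron, glia and vessel markers as a covariate (7, 11 and 3, with 17 also called in 5XFAD mice). That single pair of arrays without Xist signal gave 7 higher, 38 lower, 2 on chromosome 17 and 1 with an interaction. More were called higher with the salivary gland covariate (89 higher, 26 lower). More were also called without WT 1 and WT 2 (199, 59 and 18, with 29 interactions), also without Trem2-/- 3 (159, 36 and 16), and without WT 1, WT 2, 5XFAD 1 and 5XFAD 2 (208, 63 and 21). Fewer arrays or a further term leave fewer degrees of freedom; beyond that the cause was not tested. Scaling, pseudocount, filter, the Xist term and trend with robust variance gave 41 to 57 higher and 23 to 34 lower.

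With the replicate block, 21 were higher, 17 lower and 4 on chromosome 17, all 38 among the 78. Whether the numbers pair arrays was checked for WT and Trem2-/- arrays only, where same-numbered arrays did not deviate together. Some features did go with the number in other groups. Salivary gland signal was high in arrays 1 and 2 of both WT and 5XFAD. The neutrophil marker mean was highest in Trem2-/- 1 (5.94) and Trem2-/-5XFAD 1 (6.08) of their groups. Signal over background limits genes with a group under the 40th percentile, such as Treml4 (4 of 4 WT arrays) and Olfr111 (4 of 4 Trem2-/- arrays).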

Other observations

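The array with conflicting labels, titled WT but labelled Trem2-/- in source and genotype, was in no comparison. Its log2 level was 11.08 for Trem2, 10.68 for G530011O06Rik, 9.62 for Mid1 and 5.06 for Rasgrf2. It was 7.43 for Lrmda, 5.15 for Enpp5, 8.37 for Glo1 and 5.82 for Nnt. Csf1 was at 7.88, Cst7 at 7.62, Nr1d1 at 7.57 and Bcl6 at 9.01. The salivary gland marker mean was 3.44, the neutrophil marker mean was 4.19, and Xist signal was present. The mean log2 level of border macrophage markers was 6.74 in this array. It ran from 5.49 to 6.36 in the WT arrays and from 5.95 to 6.94 in the Trem2-/- arrays.

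Among genes of other roles that were not called in Trem2-/- microglia, Plaur, the urokinase receptor, was at 9.19, 9.50, 7.41 and 7.75 in WT and at 9.52, 9.56, 9.41 and 9.09 in Trem2-/- microglia. The AP-1 subunit gene Fosl2 was at 7.22, 7.27, 6.31 and 6.07 in WT and at 7.68, 7.39, 7.61 and 7.31 in Trem2-/- microglia. Both showed the order of the WT arrays seen for Bcl6, and neither passed the test (adjusted p = 0.208 and 0.104, limma). Crisp3, a secreted protein of glands whose gene lies between Olfr111 and Enpp5 on chromosome 17, was at 7.75 and 8.49 in WT 1 and WT 2, at 2.37 and 2.10 in WT 3 and WT 4, and at 2.42 to 2.59 in Trem2-/- microglia.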
